A study of Homo sapiens with 12 samples.

Results

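The genes described here encode proteins that move, sense or bind calcium in the endoplasmic reticulum (ER) or, for *SDF4*, in the Golgi. They are 10 genes chosen by symbol from the 23292 symbols listed in each deposited results table: *ATP2A2*, *ATP2A3*, *ITPR1*, *ITPR2*, *ITPR3*, *STIM1*, *STIM2*, *CALU*, *RCN1* and *SDF4*. All 10 were found, and all 10 had a mean of at least 10. Of all 23292 symbols, 15638 had such a mean, which is the background for each count at this threshold below. RNA was sequenced from HEK293T cells, a derivative of an established human embryonic kidney line (the growth protocol says HEK293), labelled WT. Cells were treated for 6 h with DMSO vehicle (Veh) or with 10 µM AA263, AA263yne or AA263-5, with 3 samples in each of the 4 groups and 12 samples in all. AA263 is a phenylhydrazone under study as an activator of ATF6, and in AA263yne an alkyne-bearing group takes the place of the nitro group of AA263.

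The value used is the authors' mean normalized value of each gene. From its column name, which names no sample, it was read as pooling all 12 samples, treated and vehicle. It is the same in the 3 deposited tables. The other measurement columns of these tables are the authors' comparisons of each compound with vehicle, and they were not used. The levels below therefore describe HEK293T cells across the whole experiment and say nothing about a response to any compound. Values of single samples were not analysed here, so no level has an error, the tables show no depth per sample (the methods give a nominal number of reads), and no difference between genes was tested. The means sum to 36.6 M over all symbols. To compare genes, each mean was divided by the length in kb of the gene's canonical transcript in GENCODE 44, and this quantity is the level of a gene below.

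The ER is the main calcium store of most animal cells. SERCA pumps fill it, inositol trisphosphate (IP3) receptors release calcium into the cytosol when hormones or growth factors act on the cell, and STIM proteins sense the fall inside the store and open ORAI channels at the plasma membrane. Chaperones of the ER need calcium to work, so a loss of stored calcium is a classical trigger of the unfolded protein response, and thapsigargin, a standard inducer of ER stress, acts by blocking SERCA pumps. ATF6, one sensor of this response, acts with NF-Y at the ER stress element, a CCAAT box and a CCACG box set 9 bases apart.

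Because the compounds are studied as ATF6 activators, the ER stress element of *HSPA5* (the ER chaperone BiP) is shown beside the closest matches in the genes described. Capitals mark bases that match CCAAT, any 9 bases and CCACG, lower case marks the spacer, mismatches and 4 flanking bases on each side, and each run reads 5′ to 3′ along its gene's strand.
*HSPA5*: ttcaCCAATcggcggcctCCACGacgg
*ATP2A2*: tcggCCAATgagcggcgtCCACatgcc
*SDF4*: gcggCCAATcggcggccgtCACGtggc

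These runs come from RefSeq promoter windows of GRCh38.p14, which span 250 bases before to 50 bases after an annotated transcription start. They lie at chr9:125241387-125241413 on the minus strand for *HSPA5*, at chr12:110281180-110281206 on the plus strand for *ATP2A2*, and at chr1:1232108-1232134 on the minus strand for *SDF4*. The element ran from base -66 to base -48 relative to the start in *HSPA5*, from -63 to -45 in *ATP2A2*, and from -129 to -111 in *SDF4*. Windows were given for 8 of the 10 genes, 12 windows in all, and none was given for *ATP2A3* and *ITPR2*. The exact element, searched on both strands, was present in 0 of these 12 windows and in 27 of all 35116 windows (0.0769%). With 1 mismatch allowed, a setting chosen after the windows were seen, it was present in 2 of the 12 windows, the *ATP2A2* and *SDF4* runs above, and in 1.55% of all windows. *ATP2A2* had a match in 1 of its 2 windows. The CCACG box alone was present in 8 of the 12 windows and in 38.1% of all windows. The 8 windows belong to 7 of the 8 genes, all but *ITPR3*. Among the genes of 13 other calcium-binding proteins listed further on, 12 had windows, 17 in all. The exact element was present in 6 of these 17 windows, which belong to *HSPA5*, *HSP90B1*, *CALR* and *CANX*. *HSPA5* was the reference shown above, so its match is not a separate observation. No difference between these genes and the genes described was tested. A match is a description of the letters in a window and not a measured binding site.

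Of the genes described, the SERCA pumps showed the widest gap between relatives. *ATP2A2*, which encodes the broadly expressed pump SERCA2, had an authors' mean of 15145, the 313th highest of all symbols, and a level of 1826 per kb. *ATP2A3*, which encodes SERCA3, a pump best known from blood and epithelial cells, had a mean of 111 and a level of 23.7 per kb. The level of *ATP2A2* was thus 77.0 times that of *ATP2A3*. The ratio was 68.2 per kb of all annotated exons and 130.4 per kb of coding sequence. *ATP2A1*, the pump of fast skeletal muscle, had a level of 34.2 per kb, so *ATP2A2* made up 96.9% of the summed SERCA level. Coding sequences of *ATP2A2* and *ATP2A3* were identical at 71.3% of aligned bases, and their longest shared run was 20 bases.
*ATP2A2* lies on chromosome 12 of GRCh38 from 110280756 to 110351093, with 20 exons in its canonical transcript. *ATP2A3* lies on chromosome 17 from 3923870 to 3964464, with 21 exons. No other annotated gene overlaps either one. Of 11 further pumps and regulators, 10 were in the table and 7 had a mean of at least 10. *ERP44*, a thiol-dependent ER protein known to bind IP3 receptors, had a level of 847 per kb. *TMX1*, an ER thioredoxin known to act on SERCA pumps, had 381 per kb. *ATP2C1*, the calcium and manganese pump of the Golgi, had 418 per kb, and *ATP2B1*, a calcium pump of the plasma membrane, had 606 per kb. *ATP2A2* was above each of these per kb of canonical transcript, of all exons and of coding sequence. The SERCA inhibitor sarcolipin, *SLN*, had a mean of 1.20.

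**Figure D1:**
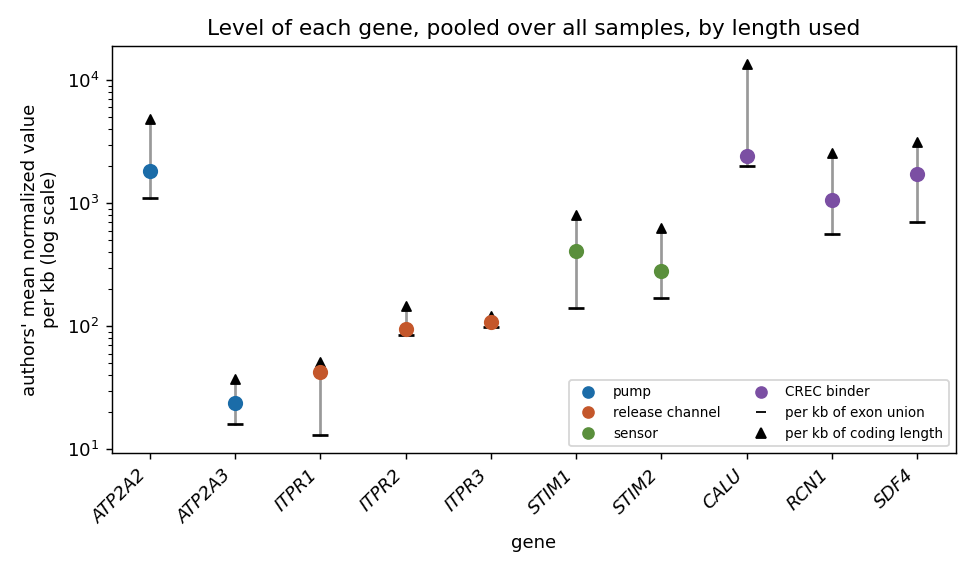
The level of each gene is plotted as the authors' mean normalized value per kb on a log axis, with coloured circles for the canonical transcript, dashes for all annotated exons and triangles for coding sequence; grey lines join these values and are not errors. *CALU* and *ATP2A2* stand highest by circle, at 2409 and 1826 per kb, and *ATP2A3* lowest, at 23.7 per kb.

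All 3 IP3 receptors were present, at levels far below that of *ATP2A2*. *ITPR1*, the receptor most abundant in cerebellar neurons, had a mean of 423 and a level of 42.7 per kb. *ITPR2*, known for its high affinity for IP3, had a mean of 1185 and a level of 94.3 per kb. *ITPR3*, often found in secretory and other epithelial cells, had a mean of 977 and a level of 108 per kb. Of the summed IP3 receptor level, *ITPR1* made up 17.5% and *ITPR2* 38.6%, with the rest from *ITPR3*. The order of *ITPR3* and *ITPR2* rests on the length used: their ratio was 1.14 per kb of canonical transcript and 1.16 per kb of all exons, but 0.834 per kb of coding sequence. *ITPR1* was the lowest of the 3 under each of these lengths, with a ratio of *ITPR3* to *ITPR1* of 2.52, 7.52 and 2.38 in the same order.
*ITPR1* lies on chromosome 3 from 4493345 to 4847506, with 62 exons and 21 annotated coding transcripts, so its length is the least certain of the family. *ITPR2* lies on chromosome 12 from 26335352 to 26833194, with 57 exons, and *ITPR3* on chromosome 6 from 33620365 to 33696574, with 58 exons. *ITPR3* overlaps *UQCC2*, a gene on the opposite strand with a mean of 2189, over 2282 bases. The libraries are labelled strand-specific, and whether counting used the strand is not given in the sources used here, so reads in that stretch could have been assigned to either gene. The coding sequences of the receptors were 67.9% to 70.5% identical, with longest shared runs of 20 to 29 bases.
Ryanodine receptors, the other main release channels of the ER, were lower than each IP3 receptor. *RYR2*, the cardiac form, had a level of 12.4 per kb, *RYR3* 1.57 per kb and *RYR1*, the skeletal muscle form, 0.788 per kb. They were below each IP3 receptor per kb of all exons and of coding sequence as well. The remaining genes of the list of 10 release channels and regulators also had a mean of at least 10. *TMBIM6* and *TMCO1*, which encode ER membrane proteins linked to calcium leak, had 2781 and 2532 per kb, and *AHCYL1*, which encodes the IP3 receptor binding protein IRBIT, had 1786 per kb. *ERLIN1* and *ERLIN2*, whose products form a complex that marks active IP3 receptors for degradation, had 458 and 158 per kb, and *RNF170*, the ubiquitin ligase of this complex, had 154 per kb. Each of these was above the 3 receptors per kb of canonical transcript and of coding sequence, but per kb of all exons *ERLIN2* and *RNF170*, at 97.4 and 95.6, were just below *ITPR3*, at 98.9.

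The calcium sensors *STIM1* and *STIM2* lay between the IP3 receptors and the pump *ATP2A2*. *STIM1*, which responds to strong store depletion, had a mean of 1710 and a level of 410.3 per kb. *STIM2*, known to respond to small falls in ER calcium, had a mean of 1403 and a level of 280.5 per kb. Their ratio was 1.46 per kb of canonical transcript and 1.27 per kb of coding sequence but 0.838 per kb of all exons, so which of the pair is higher was not settled. *STIM1* has 20 annotated coding transcripts, and *STIM2* has 8. The coding sequences were 63.4% identical, with a longest shared run of 14 bases.
*STIM1* lies on chromosome 11 from 3854527 to 4093210, with 13 exons, and overlaps 9 annotated genes. Of these, 1 was in the table, the microRNA gene *MIR4687*, with a mean of 59.9. *STIM2* lies on chromosome 4 from 26857601 to 27025381, with 12 exons. All 8 further genes of store-operated entry had a mean of at least 10. Of the plasma membrane channels that STIM proteins open, *ORAI1* had a level of 389.8 per kb, *ORAI2* 40.9 per kb and *ORAI3* 20.5 per kb. *SARAF*, which encodes a protein that turns store-operated entry off, was the highest of the list at 2827 per kb, above both sensors.

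**Figure D2:**
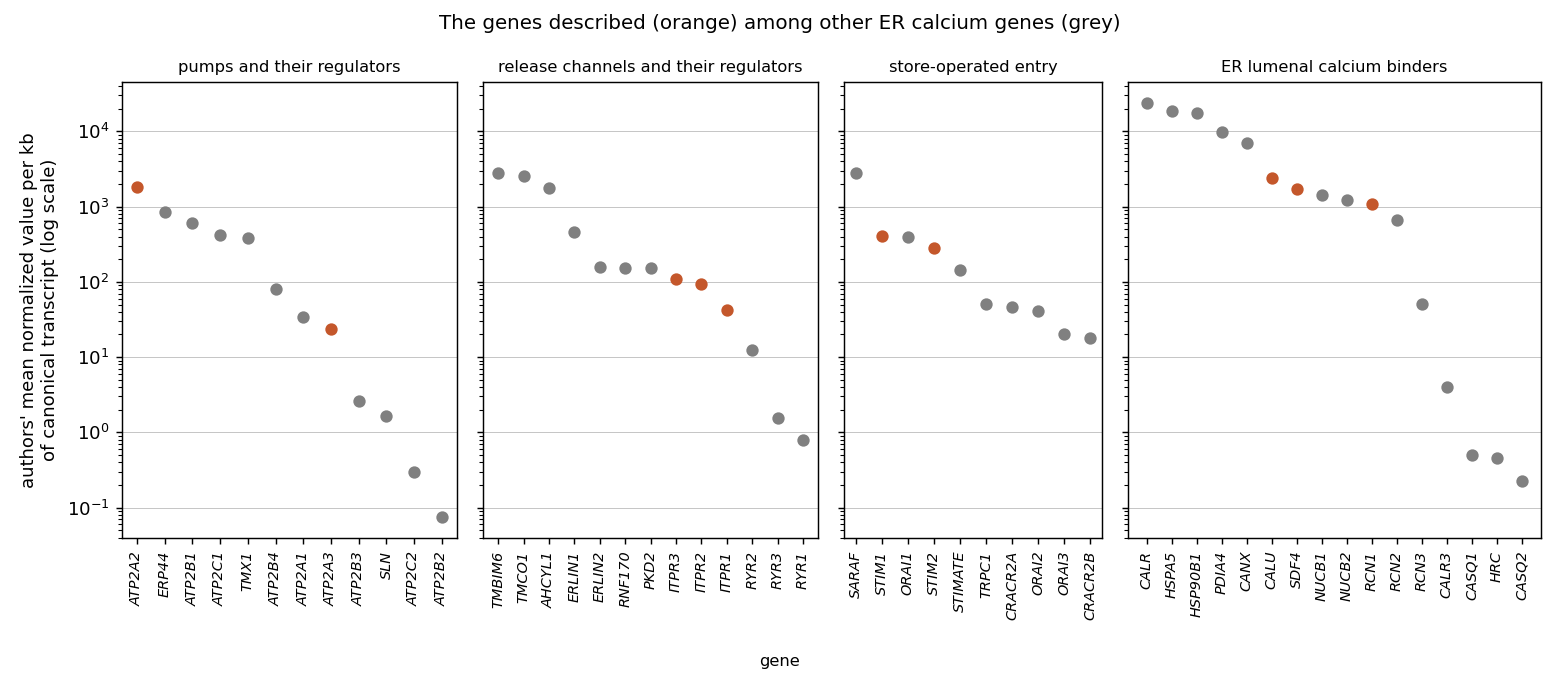
The level of each gene, as the authors' mean normalized value per kb of canonical transcript on a log axis, is plotted in 4 panels by role, in orange for the genes described and in grey for other genes of fixed lists, with genes sorted from high to low in each panel. *ATP2A2* is the highest of the pump panel at 1826 per kb, while the 3 IP3 receptors sit above the ryanodine receptors and below the other genes of their panel, of which *ERLIN2* and *RNF170* fell below *ITPR3* per kb of all exons.

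The EF-hand proteins *CALU*, *RCN1* and *SDF4* belong to the CREC family, which binds calcium with low affinity in the lumen of the secretory pathway. *CALU*, which encodes calumenin, had a mean of 12686, the 397th highest of all symbols, and a level of 2409 per kb. *SDF4*, which encodes Cab45, a calcium-binding protein of the Golgi lumen known for sorting secreted cargo, had a mean of 3329 and a level of 1722 per kb. *RCN1*, which encodes reticulocalbin 1 of the ER lumen, had a mean of 2532 and a level of 1069 per kb. Of the family members outside the set, *RCN2* had 674 per kb and *RCN3* 51.0 per kb. *RCN3* was the lowest of the 5 under each length, whereas *RCN2* was below *SDF4* and *RCN1* per kb of canonical transcript and of all exons but above both per kb of coding sequence, at 4405. *CALU* made up 40.7% of the summed level of these 5 genes, *SDF4* 29.1% and *RCN1* 18.0%.
*CALU* was above *SDF4* and *RCN1* under every length, but by how much depended on it. The ratio of *CALU* to *SDF4* was 1.40 per kb of canonical transcript, 2.82 per kb of all exons and 4.29 per kb of coding sequence. That of *CALU* to *RCN1* was 2.25, 3.53 and 5.27. Of the 5266 bases of the canonical *CALU* transcript, 945 code for protein, so most of its length is untranslated. The coding sequences of *CALU* and *RCN1* were 66.2% identical, and those of *CALU* and *SDF4* were 60.1% identical, with longest shared runs of 12 and 11 bases.
*CALU* lies on chromosome 7 from 128739292 to 128773400, with 7 exons, and overlaps *OPN1SW*, a cone opsin gene on the opposite strand with a mean of 0.642. *RCN1* lies on chromosome 11 from 32091074 to 32105722, with 6 exons. It overlaps ENSG00000285283, a protein-coding gene model on the same strand that has no row of its own in the table, over 13592 bases, so reads from that model could not be told apart from those of *RCN1* by strand. *SDF4* lies on chromosome 1 from 1216931 to 1232031, with 7 exons. Of 13 further calcium-binding proteins of the ER, the Golgi or muscle, 9 had a mean of at least 10. The chaperones among them were higher than the CREC proteins under each length: calreticulin, *CALR*, had a level of 23754 per kb, *HSPA5* 18618 per kb, *HSP90B1* (GRP94) 17453 per kb, *PDIA4* 9879 per kb and calnexin, *CANX*, 6990 per kb. The margin over *CALU* was small in places. Per kb of coding sequence *PDIA4* had 14127 and *CALU* 13424, and per kb of all exons *CANX* had 2496 and *CALU* 2000. Treated samples are part of these means, and the order in vehicle alone was not analysed here. Calreticulin is the classical calcium buffer of the ER. The nucleobindins *NUCB1* and *NUCB2*, which are Golgi calcium-binding proteins, had 1446 and 1235 per kb, between *SDF4* and *RCN1*, but both were below *RCN1* per kb of all exons and per kb of coding sequence. The calsequestrins *CASQ1* and *CASQ2*, the calcium buffers of muscle, had means of 0.930 and 0.580.

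**Figure D3:**
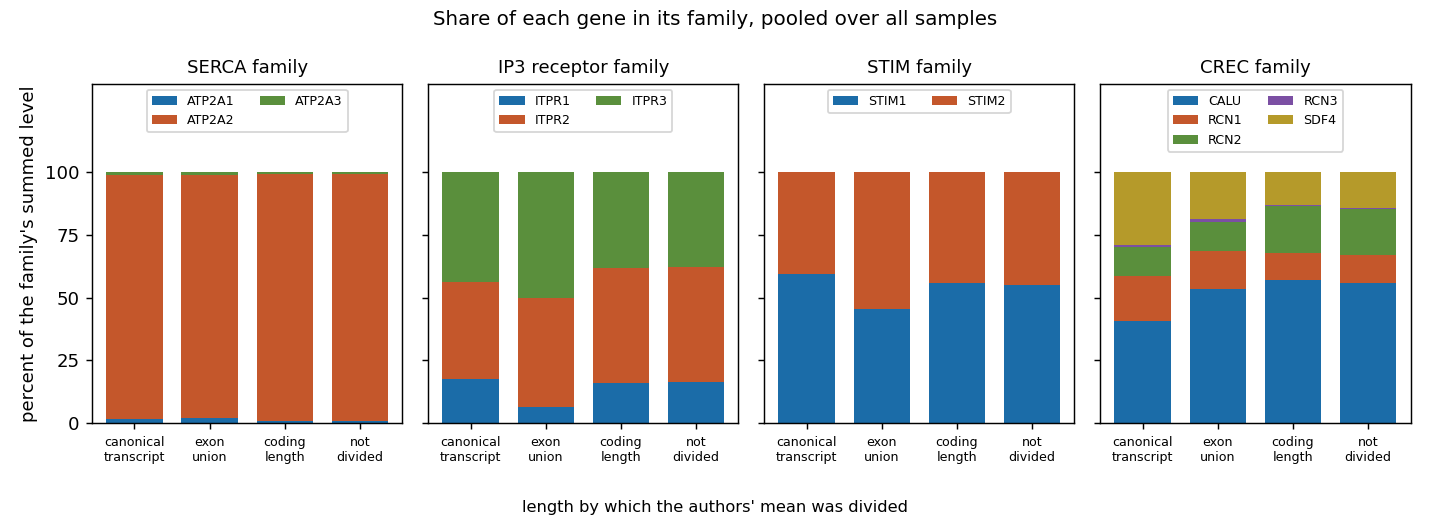
Stacked bars give the percent of each family's summed level held by each gene, with the authors' mean normalized value divided by the canonical transcript, the exon union, the coding length or not divided. *ATP2A2* fills nearly all of the SERCA bar under each length (96.9% for the canonical transcript), while the shares within the IP3 receptor, STIM and CREC families shift with the length used.

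From high to low, the levels ran *CALU*, *ATP2A2*, *SDF4*, *RCN1*, *STIM1*, *STIM2*, *ITPR3*, *ITPR2*, *ITPR1* and *ATP2A3*. Of the 9 neighbouring pairs in this order, 6 kept it both per kb of all exons and per kb of coding sequence. The 3 that did not were *STIM1* and *STIM2*, *ITPR3* and *ITPR2*, and *ITPR1* and *ATP2A3*. For means not divided by length, *ATP2A2* stood above *CALU*, at 15145 and 12686, and *ITPR2* above *ITPR3*. The median level of the 10 genes was 345 per kb, beside 206 per kb over genes of the table with a mean of at least 10 and a known length, and 6 of the 10 genes were above that value. The count was also 6 per kb of all exons and of coding sequence, and it was 8 for means not divided by length. Among those genes *CALU* stood at the 91.9th percentile of the level, *ATP2A2* at the 89.2nd, *SDF4* at the 88.6th and *RCN1* at the 82.2nd. *STIM1* stood at the 64.7th percentile and *STIM2* at the 56.5th. *ITPR3*, *ITPR2*, *ITPR1* and *ATP2A3* stood at the 37.9th, 35.6th, 23.6th and 16.4th percentiles. For means not divided by length, *ITPR2* and *ITPR3* stood at the 65.1st and 60.9th percentiles. How far these ranks differ between vehicle and treated samples was not analysed here.

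Markers of the cell line were checked over the same pooled means. All 10 genes of a list of kidney, neuronal and epithelial genes known from HEK293 cells had a mean of at least 10, from 10.5 for *NEFH* to 18797 for *VIM*. So did 15638 of all 23292 symbols. The median mean of all symbols was 99.7, and *NEFH*, *PAX2* (27.7) and *LHX1* (85.8) were below it. Of 8 markers of other cell types, 6 were in the table and 2 had a mean of at least 10, namely *COL1A1* at 397 and *ACTA1* at 24.4. *COL1A1* was above *NEFH*, *PAX2*, *LHX1* and *EYA1* (166) of the HEK293 list. *PTPRC*, *CD3E*, *ALB* and *PECAM1* had means of 0.488 to 1.30.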

How the data were processed

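RNA-seq was performed on 12 HEK293T samples in 4 groups. Per the paper's methods, the authors aligned paired-end reads with DNAstar SeqManPro to GRCh38.p7, used ArrayStar with QSeq to quantify genes, and fitted DESeq2 for every compound against vehicle (version 1.40.1 in the submitters' processing notes, which also name an older human build). The methods describe whole transcriptome libraries, and the labels describe strand-specific mRNA libraries. Annotation, strand setting and filters are not given in the sources used here.

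The only signal used is the deposited mean, read as a mean over all samples, of values that the authors scaled with size factors. The other 5 columns of each table hold the authors' fold change, its standard error, test statistic, p-value and adjusted p-value for a compound against vehicle, and were not used. The methods state that reads per kb per M entered the fit. With the transcript lengths used here, such values would sum to about 0.449 M, far below the 36.6 M of the deposited means, which were therefore divided by length here. Lengths and coordinates came from GENCODE 44 (GRCh38), which is newer than the authors' build. Symbols were matched by name or RefSeq synonym for 90.0% of the 15638 genes with a mean of at least 10, and for 77.2% of all symbols, too few for percentiles over all of them. Of the symbols, 23 read as dates or numbers instead of gene names.

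No test was run, since pooled means have no replicates, and no counting interval was computed, since the tables give no counts or depths per sample and the methods give only a nominal number of reads. Coding sequences were aligned globally with Biopython 1.88 (match 2, mismatch -1, gap opening -5, gap extension -0.5). Motif search and alignment were tested on simulated data. The named genes are the 10 genes described and fixed lists of calcium-handling genes and cell type markers. *UQCC2*, *MIR4687*, *OPN1SW* and ENSG00000285283 were named after their values were seen, as overlapping genes. Members and lists were chosen with earlier results of these data known.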

Additional observations from a re-analysis of the deposited data

How the results depend on the processing

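Ratios between relatives were recomputed with other lengths and called the same within 1.5 times. *ATP2A2* over *ATP2A3* was 130.4 per kb of coding sequence and 136 without division by length. *ITPR3* over *ITPR1* was 7.52 per kb of all exons. *ITPR3* over *ITPR2* turned to 0.834 per kb of coding sequence and 0.824 without division, and *STIM1* over *STIM2* to 0.838 per kb of all exons. *CALU* over *RCN1* was 3.53, 5.27 and 5.01, and *CALU* over *SDF4* was 2.82, 4.29 and 3.81, per kb of all exons, per kb of coding sequence and without division. These shifts follow from the lengths themselves. The other 6 ratios kept their direction and size. Of the percentiles under other lengths or over all genes with a length, 29 moved by at most 10 points and 11 by more, among them *ITPR2* to the 65.1st and *ITPR3* to the 60.9th without division. Of the 8 genes with a promoter window, 2 held the ER stress element with 1 mismatch allowed and 7 the CCACG box, against 0 for the exact element. All 17 coding sequence identities moved by less than 10 percentage points over the shorter sequence. Protein identity was not run, since no protein sequences were used here. Leaving out samples was not possible with pooled means. No paired analysis was possible because the columns used carry no replicate numbers.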
